A study of Mus musculus with 6 samples.

Results

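Integrins, laminins and their neighbours at the cell surface are the subject here: Itga2, Itgb3, Lamb3, Lamc3, Npnt, Epha2 and Actg1, chosen by symbol. All 7 had a row among the 389 genes of the table analysed here, and that table keeps only genes that the authors' own test separated between Usp28 knockout (KO) and Usp28 wild-type (WT) liver. In the authors' deposited table no absolute log2 fold change is under 1.004 and no FDR over 0.0494. A difference between KO and WT in any of the 7 genes therefore follows from the selection, and the fold changes, standard errors and adjusted p-values below are descriptions of it. RNA came from the livers of 3 KO and 3 WT samples. The KO mice lacked Usp28, which encodes a deubiquitinase, in the whole body, so the deletion is not limited to hepatocytes. Mice of both groups were 8 weeks old when they went onto food lacking methionine and choline (MCD diet), which is used to model steatohepatitis, and ate it for 4 weeks. The labels do not give the strain or sex, nor whether the 3 samples of a group were 3 animals. The p-values therefore weigh the difference only against the spread between these samples, estimated with information from all listed genes. Whether that is a spread between animals is not known. Mice on normal food were not analysed here.

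Integrins are paired surface receptors, one alpha and one beta chain, that hold cells to the extracellular matrix and link it to actin filaments inside the cell. Laminins are three-chain proteins of the basement membrane and are ligands of several integrins. Nephronectin is another matrix ligand of integrins. EPHA2 is a receptor tyrosine kinase that binds ephrins on neighbouring cells and signals to the cytoskeleton and to adhesion sites. In liver several of these proteins are best known from bile duct epithelium, endothelium, stellate cells, platelets and leukocytes, and actin is made by all cells. In bulk liver RNA, fewer cells of a type and less RNA per cell cannot be told apart.

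Each library held between 20350000 and 24160000 reads by the depth recovered from the table. WT replicate 3 stood apart from the other WT libraries: the listed genes took 5.45% of its reads, against 8.74% and 8.81% in WT replicates 1 and 2 and 3.73% to 3.77% in KO. Of the 233 listed genes lower in KO, WT replicate 3 was the highest WT library in 86 and the lowest in 123. None of the 19 hepatocyte markers looked for had a row, so the tissue label was not checked against them. Cyp7a1, a bile acid enzyme of hepatocytes singled out after its values were seen, had at least 7.0 FPKM in every library. Usp28 itself had no row, and its level cannot be used as a check of the labels. The labels do not name a batch.

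All 7 genes were lower in KO. Itga2 differed most, Epha2, Npnt and Lamb3 followed with KO means between 23.3% and 28.0% of WT in the fitted fold change, and Itgb3, Lamc3 and Actg1 stood at 45.2% to 49.4% of WT. In edgeR's quasi-likelihood test all 7 passed an adjusted p of 0.05, as did 99.7% of all 389 listed genes (59.9% as lower in KO). Depth-scaled counts, the reads of a gene divided by the depth of its library, did not overlap between KO and WT in any of the 7, nor in 94.3% of the listed genes (55.8% with KO lower). Both shares come from the authors' selection, and nothing is read from the 7 against them. The median log2 fold change was -1.83 over the 7 genes, -1.43 over the 233 listed genes lower in KO and -1.10 over all listed genes. DESeq2 also called all 7 (99.7% of the listed genes, 59.6% as lower), and limma on log2(FPKM + 1) called 4, Itgb3, Lamb3, Epha2 and Actg1 (83.8% of the listed genes, 47.6% as lower). The ratio of FDR to p in the authors' deposited table implies that 16198 genes were tested. With adjustment over that number, edgeR called 0 of the 7 (1.29% of the listed genes) and DESeq2 called 3, Epha2, Itga2 and Lamb3 (39.3% of the listed genes, 26.5% as lower). Ranks for that adjustment were taken among the listed genes only, so its adjusted p-values are upper bounds. The same ratio implies that 434 genes without a row also passed the authors' FDR. All 7 edgeR p-values were below 0.05 before adjustment, the highest being 0.0169 for Lamc3.

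**Figure D1:**
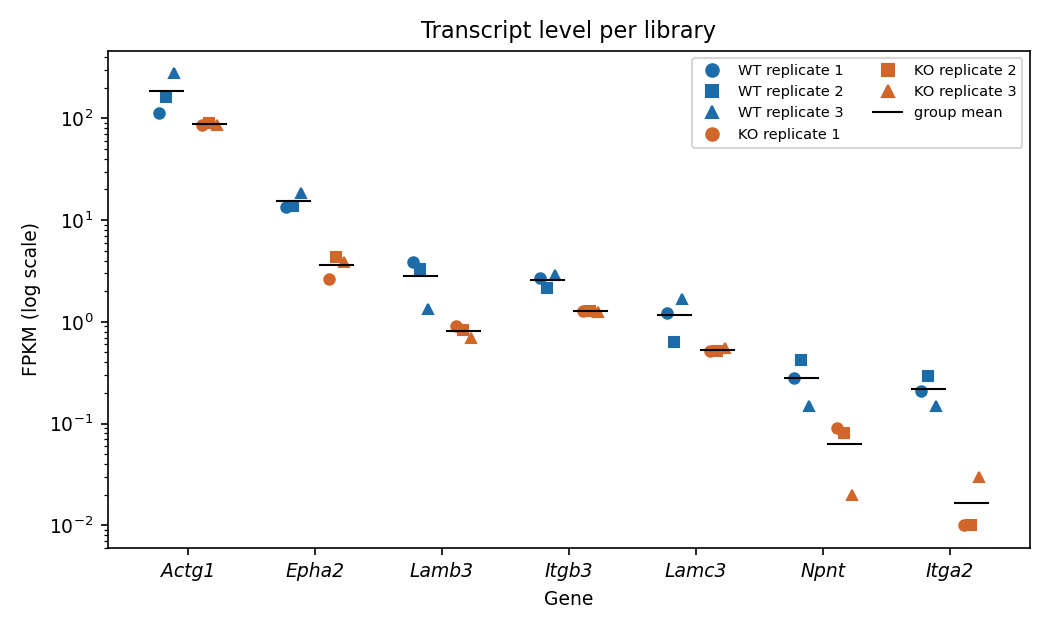
FPKM of each gene (log scale) in the 3 WT libraries (blue) and 3 KO libraries (orange), with the group means as lines. Levels run from 277 FPKM of Actg1 in WT replicate 3 to 0.01 FPKM of Itga2 in KO replicates 1 and 2, and in each gene every WT point lies above every KO point.

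Levels can be compared between genes on the FPKM scale, which accounts for transcript length. In WT the order of mean FPKM was Actg1, Epha2, Lamb3, Itgb3, Lamc3, Npnt and Itga2. The WT ranges of Lamb3 and Itgb3 overlapped, as did those of Npnt and Itga2, and the other neighbours in the order did not. In KO, Itgb3 stood above Lamb3, with ranges that did not overlap (at least 1.26 against at most 0.91 FPKM), and the ranges of Npnt and Itga2 again overlapped. Npnt and Itga2 were measured on few reads, 76 and 102 in all WT libraries together and 17 and 8 in all KO libraries.

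Regulatory sequence was searched for set motifs as a description. The 7 genes were chosen with earlier results known, so their shared direction may follow from that choice, and shared regulation was not tested. RefSeq promoter entries (GRCm38.p6, 250 bases before to 50 after a start) matched 5 of the 7 genes, Lamb3, Npnt, Epha2, Actg1 and Itga2, with 7 windows. Searched on both strands were TGANTCA (AP-1), GGAATG (TEAD) and the CArG box, the element bound by serum response factor. The motifs do not overlap one another in these windows. The CArG box was in the Actg1 window, 90 bases before the start, and in 1.63% of all 32851 promoter windows. GGAATG was in the Epha2 window, as its reverse complement 243 and 56 bases before the start, and in one of the Lamb3 windows, 167 bases before it, against 14.7% of all windows. No window of the 5 genes held TGANTCA, which 7.81% of all windows do. A match describes letters, not binding, and no match says only that these letters are not in the window. The stretches upstream of Actg1 (chr11:120348543-120348745, minus strand) and Epha2 (chr4:141300971-141301220, plus strand) are shown because each holds a match, with the match in capitals, 5′ to 3′. The Actg1 stretch is 203 bases long. It stops at the edge of the annotated gene, before the promoter entry's start from which the 90 bases are counted.
Actg1: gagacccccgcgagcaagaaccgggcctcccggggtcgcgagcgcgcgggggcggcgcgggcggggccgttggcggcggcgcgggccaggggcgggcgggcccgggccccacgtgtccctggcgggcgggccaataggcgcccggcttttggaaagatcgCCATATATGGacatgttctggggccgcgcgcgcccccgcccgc
Epha2: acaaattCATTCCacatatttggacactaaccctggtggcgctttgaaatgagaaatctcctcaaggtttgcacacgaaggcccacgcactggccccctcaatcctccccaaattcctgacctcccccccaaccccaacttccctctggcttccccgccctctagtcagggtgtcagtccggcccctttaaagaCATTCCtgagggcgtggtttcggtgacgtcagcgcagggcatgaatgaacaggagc

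Among the matrix ligands, Lamb3 (ENSMUSG00000026639, chromosome 1, 193207699 to 193343878, plus strand, GRCm38) encodes a beta chain of the laminin of epithelial basement membranes. Its FPKM was 3.83, 3.29 and 1.35 in WT replicates 1, 2 and 3, against 0.91, 0.84 and 0.70 in the KO libraries in the same order. WT replicate 3 was well under the other WT libraries and lay 1.5-fold above the highest KO library by depth-scaled count. edgeR put the log2 fold change at -1.83 ± 0.42 (SE, adjusted p = 0.00632), and -2.16 without WT replicate 3. KO replicate 3 was lower than the other KO libraries by count, with 51 reads against 82 and 81. The gene has 9 annotated transcripts, and its span encloses Hsd11b1 and G0s2 on the opposite strand, whose exons share no base with those of Lamb3.

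Lamc3 (ENSMUSG00000026840, chromosome 2, 31887291 to 31946539, plus strand) encodes a laminin gamma chain. Its FPKM was 1.22, 0.63 and 1.67 in WT replicates 1, 2 and 3, against 0.52, 0.52 and 0.55 in the KO libraries in the same order. WT replicate 2 lay close to KO, 1.17-fold above the highest KO library by depth-scaled count, and WT replicate 3 was the highest. The edgeR log2 fold change came to -1.15 ± 0.40 (SE, adjusted p = 0.0199), -1.45 without WT replicate 2 and -0.80 without WT replicate 3. Lamc3 missed the threshold whenever 1 KO library was left out (edgeR adjusted p = 0.0610, 0.0658 and 0.0551 without replicate 1, 2 and 3). The antisense gene Gm13441 overlaps 382 bases of its exons, and reads of both cannot be told apart unless strand was used in counting, which is not given in the sources used here.

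Npnt (ENSMUSG00000040998, chromosome 3, 132881745 to 132950291, minus strand) encodes nephronectin, a ligand of the integrin of Itga8 and Itgb1. WT replicates 1, 2 and 3 held 24, 39 and 13 of its reads, and KO replicates 1, 2 and 3 held 7, 8 and 2, that is 0.28, 0.42 and 0.15 FPKM against 0.09, 0.08 and 0.02. The lowest WT library, replicate 3, and the highest KO library, replicate 2, differed by 5 reads, or 1.77-fold by depth-scaled count. The summed counts gave a 4.47-fold higher level in WT (95% exact interval 2.61 to 8.06, which covers counting error only). For Npnt the edgeR log2 fold change was -2.10 ± 0.69 (SE, adjusted p = 0.0159). Without KO replicate 3 it was -1.70 and did not pass (edgeR adjusted p = 0.0597).

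The receptor genes included the largest difference. Itga2 (ENSMUSG00000015533, chromosome 13, 114833081 to 114932100, minus strand) encodes the alpha chain of a collagen and laminin receptor whose beta chain is the product of Itgb1. Its reads numbered 31, 50 and 21 in WT replicates 1, 2 and 3, and 2, 2 and 4 in the KO libraries in the same order. Its FPKM was 0.21, 0.29 and 0.15 in WT against 0.01, 0.01 and 0.03 in KO. The lowest WT library lay 5.63-fold above the highest KO library by depth-scaled count, the widest gap of the 7 genes. Its edgeR log2 fold change was -3.59 ± 0.66 (SE, adjusted p = 0.00334), between -3.97 and -3.31 when any 1 library was left out. The summed counts gave a 12.7-fold higher level in WT, with a 95% exact counting interval from 6.23 to 30.3.

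Itgb3 (ENSMUSG00000020689, chromosome 11, 104608000 to 104670476, plus strand) encodes the beta chain that pairs with the product of Itgav in the vitronectin receptor and with that of Itga2b in the fibrinogen receptor of platelets. Its FPKM was 2.72, 2.13 and 2.86 in WT replicates 1, 2 and 3, against 1.27, 1.27 and 1.26 in the KO libraries in the same order. The KO libraries were nearly identical and each WT library was at least 1.67-fold above them by depth-scaled count. In edgeR this was a log2 difference of -1.02 ± 0.28 (SE, adjusted p = 0.00991), and stayed between -1.14 and -0.93 when any 1 library was left out, passing each time. Of the 15 platelet and megakaryocyte markers looked for, Itgb3 was the 1 with a row, so platelet RNA was not measured independently of it.

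Epha2 (ENSMUSG00000006445, chromosome 4, 141301240 to 141329384, plus strand) had the smallest SE relative to its fold change among the 7 genes. Its FPKM was 13.4, 13.9 and 18.5 in WT replicates 1, 2 and 3, against 2.65, 4.36 and 3.88 in the KO libraries in the same order. The groups lay far apart, with the lowest WT library 3.07-fold above the highest KO library by depth-scaled count. The log2 fold change from edgeR was -2.07 ± 0.33 (SE, adjusted p = 0.00239), and between -2.22 and -1.89 when any 1 library was left out. By the p-value in the authors' deposited table (5.58e-20) it ranked 7 among the 389 listed genes.

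On the cytoskeletal side, Actg1 (ENSMUSG00000062825, chromosome 11, 120345690 to 120348542, minus strand) encodes cytoplasmic gamma actin, a subunit of the filaments that integrins anchor to. Its FPKM was 113, 163 and 277 in WT replicates 1, 2 and 3, against 86.9, 90.5 and 85.5 in the KO libraries in the same order. The KO libraries lay close together, while the WT libraries spread widely, and WT replicate 1 was 1.24-fold above the highest KO library by depth-scaled count. By edgeR, Actg1 had a log2 fold change of -1.07 ± 0.37 (SE, adjusted p = 0.0184) and -0.65 without WT replicate 3 (edgeR adjusted p = 0.0135). Actg1 too missed the threshold whenever 1 KO library was left out (edgeR adjusted p = 0.0564, 0.0607 and 0.0610 without replicate 1, 2 and 3). Of the 100-base stretches of its annotated coding transcripts, 39.4% also occur in transcripts of other annotated genes, 6 in number and led by Gm12715, so its count depends on how the authors assigned such reads. No such stretch was shared for Itga2, Itgb3, Lamb3, Npnt or Epha2.

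**Figure D2:**
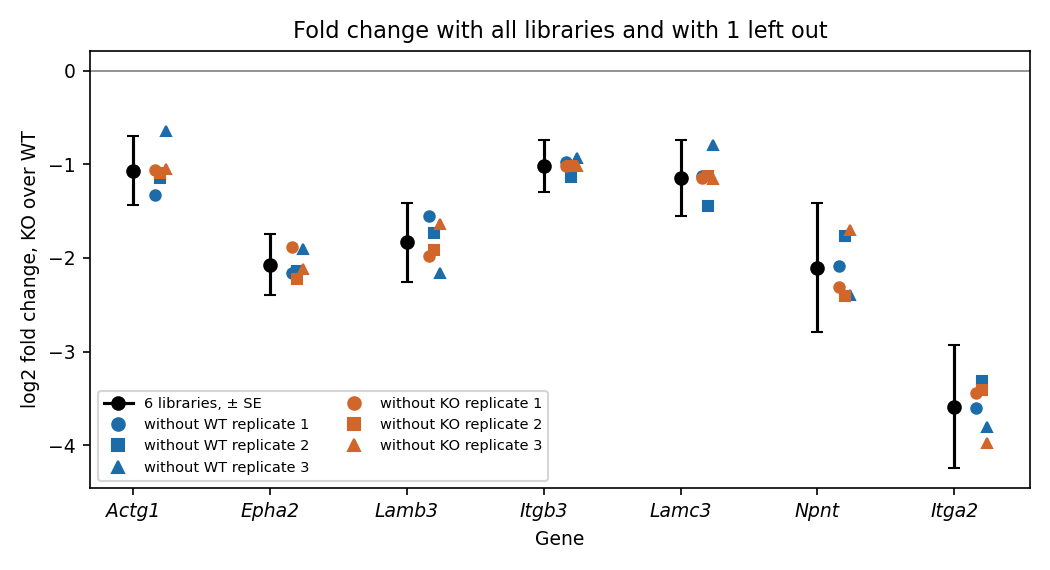
The log2 fold change of KO over WT for each gene with all 6 libraries (black, edgeR estimate ± SE) and with 1 library left out (coloured points). No gene crossed 0, which was fixed in advance because the KO and WT values did not overlap in any gene. Actg1 moved from -1.07 to -0.65 without WT replicate 3, and Lamb3 from -1.83 to -2.16.

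The 7 genes did not share a pattern within WT. By depth-scaled count, Itgb3, Lamc3, Epha2 and Actg1 were highest in WT replicate 3, by 1.18, 1.82, 1.36 and 2.01 times the mean of WT replicates 1 and 2. Itga2, Lamb3 and Npnt were lowest in that library, at 0.575, 0.399 and 0.458 of that mean. The 4 against 3 genes compare with 86 highest and 123 lowest among the 233 listed genes lower in KO. Among the WT libraries the coefficient of variation ran from 15.2% in Itgb3 to 45.8% in Actg1. In KO it was 0.541% in Itgb3, 2.22% in Lamc3 and 2.88% in Actg1, against a median of 16.9% over all listed genes, and 24.4% to 56.6% in the other 4. The KO spread of Itga2, Itgb3 and Lamc3 was below the size that counting alone would give (chi-square per degree of freedom 0.479, 0.00470 and 0.0332). The KO libraries held Itgb3 at 153, 163 and 159 reads and Lamc3 at 64, 66 and 68. In WT, each gene exceeded it, from 3.81 in Itga2 to 1550 in Actg1.

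**Figure D3:**
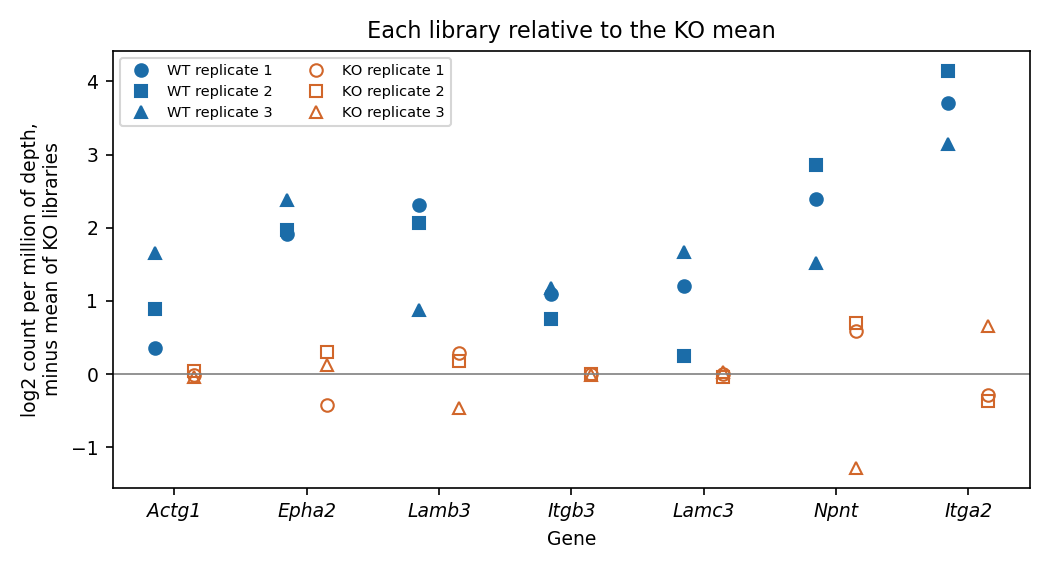
Depth-scaled counts on a log2 scale, minus the mean of the KO libraries, for each gene in the WT (filled) and KO (open) libraries. The WT replicate 3 triangle is the top WT point in Actg1, Epha2, Itgb3 and Lamc3 and the bottom one in Lamb3, Npnt and Itga2.

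The leukocyte marker genes with a row were also highest within WT in replicate 3, though Gpnmb only slightly (11.3, 5.6 and 11.5 FPKM in WT replicates 1, 2 and 3). Of 20 monocyte and macrophage markers, 6 had a row (Itgam, Itgax, Lgals3, Cd14, Gpnmb and Mmp12) and all 6 fell in KO, beside 59.9% of all listed genes called as lower. Their summed FPKM was 67.1, 30.8 and 168 in WT replicates 1, 2 and 3 and between 20.7 and 28.9 in KO, and no marker was at 0 in any library. The defining macrophage markers Adgre1, Cd68 and Csf1r had no row. Lcn2, the 1 neutrophil marker with a row of 12, stood at 28.8, 33.9 and 120 FPKM in WT replicates 1, 2 and 3 and at 12.4, 10.96 and 8.02 in KO. Cldn4, a tight junction gene and the 1 of 15 cholangiocyte markers with a row, stood at 0.41, 0.16 and 3.25 FPKM in WT and 0.03, 0.10 and 0.05 in KO. Timp1, an inhibitor of matrix proteases and the 1 of 16 stellate cell markers with a row, stood at 0.45, 0.33 and 3.55 FPKM in WT and 0.05, 0.26 and 0.06 in KO. Cldn4 and Timp1 were measured on few reads, 142 and 76 in all WT libraries together and 7 each in all KO libraries. No liver endothelial, Kupffer cell, lymphocyte or proliferation marker had a row. These markers were highest in WT replicate 3, as were Itgb3, Lamc3, Epha2 and Actg1, and their part in those differences was not tested. Without that library, Lgals3, Cd14 and Timp1 did not pass (edgeR adjusted p = 0.0642, 0.157 and 0.0674), while Cldn4, Lcn2 and Mmp12 moved from -4.34, -2.54 and -2.32 to -2.16, -1.58 and -1.45 on the log2 scale and still passed. Gpnmb, Itgax and Itgam also passed without it, at -1.79, -0.94 and -0.83 (edgeR adjusted p = 0.00756, 0.0248 and 0.0409). Leaving out a KO library also cost Cd14 the threshold (edgeR adjusted p = 0.0703, 0.0611 and 0.0533 without replicate 1, 2 and 3). Lgals3 missed it without KO replicate 2 (edgeR adjusted p = 0.0657) and Timp1 without KO replicate 1 (edgeR adjusted p = 0.0526). Without WT replicate 3 the edgeR log2 fold changes of Itgb3, Lamc3, Epha2 and Actg1 were -0.93, -0.80, -1.91 and -0.65. Their direction could not change, because KO and WT depth-scaled counts did not overlap in any of the 4.

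The rest of the adhesion machinery was mostly not in the table. A gene without a row did not meet the authors' selection or was not among the genes they tested, and its level is not known here. The counts of lower genes in these lists stand beside 59.9% of all listed genes called as lower and 99.7% called in either direction. Of 29 integrin genes, 4 had a row, and all 4 were lower: beside Itga2 and Itgb3 these were the leukocyte integrin chains Itgam (-1.07 ± 0.43 on the log2 scale, SE, edgeR adjusted p = 0.0313) and Itgax (-1.49 ± 0.46, SE, edgeR adjusted p = 0.0136). The partner chains Itgb1, Itgav and Itga2b had no row. Of 26 laminin and basement membrane genes, Lamb3, Lamc3 and Nid1 had one, and all 3 fell, while Lama3 had none. Nid1, which encodes a protein that links laminin to collagen, stood at 5.73, 4.45 and 14.6 FPKM in WT replicates 1, 2 and 3, against 4.05, 4.47 and 2.93 in KO, so its groups overlapped. Nid1 differed by -1.11 ± 0.45 on the log2 scale (SE, edgeR adjusted p = 0.0324), and by -0.42 without WT replicate 3 (edgeR adjusted p = 0.151). It also missed the threshold whenever 1 KO library was left out (edgeR adjusted p = 0.0716, 0.0699 and 0.106 without replicate 1, 2 and 3). Npnt was the 1 listed gene of 36 other integrin ligands, and Epha2 the 1 of 22 Eph receptors and ephrins.

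Of 63 actin and focal adhesion genes, 3 had a row and all 3 fell: Actg1, Rhoc and Cdc42ep5. Cdc42ep5, which encodes an effector of the small GTPase CDC42, stood at 15.1, 17 and 22.3 FPKM in WT replicates 1, 2 and 3, against 2.67, 3.53 and 2.28 in KO. Its edgeR log2 fold change was -2.65 ± 0.33 (SE, adjusted p = 0.000762). Rhoc, which encodes a small GTPase, stood at 20.8, 13.9 and 36.2 FPKM in WT and 8.22, 11.4 and 9.49 in KO, and edgeR gave -1.25 ± 0.39 on the log2 scale (SE, adjusted p = 0.0137). Actb had no row. Of 51 genes of cell-cell adhesion and other adhesion receptors, Cldn4 and Cd36 had a row and both fell. That count depends on the list: Dsg1c, Celsr1, Cdh18 and Ncam2, adhesion genes outside it that were named after their values were seen, were higher in KO (edgeR log2 fold changes 1.65, 1.22, 1.51 and 1.76). Cd36, a fatty acid and thrombospondin receptor, stood at 81.8, 41.9 and 74.9 FPKM in WT and 37.0, 24.0 and 24.5 in KO (-1.13 ± 0.38 on the log2 scale, SE, edgeR adjusted p = 0.0174). The KO and WT libraries of Cd36 overlapped by depth-scaled count, though not by FPKM. Itgam, Itgax, Rhoc and Cd36 also missed the threshold with 1 library left out, at edgeR adjusted p-values of 0.107 without KO replicate 2, 0.0531 and 0.0531 without KO replicate 1 and 0.0716 without KO replicate 3. Itgam missed it without WT replicate 1 or KO replicate 3 too (edgeR adjusted p = 0.0615 and 0.106). Cd36 missed it without WT replicate 1 or KO replicate 2 too (edgeR adjusted p = 0.0562 and 0.0699).

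The pathway annotation that the authors deposited with the genes groups several of these genes under shared terms. The term ECM-receptor interaction was attached to 6 listed genes, Itgb3, Itga2, Lamb3, Lamc3, Npnt and Cd36, all lower in KO, as were 59.9% of all listed genes. The pathway term focal adhesion was attached to 7 listed genes, all lower: Itgb3, Itga2, Lamb3, Lamc3 and Actg1 with the adaptor gene Shc2 and the cyclin gene Ccnd3. Of 10 genes under PI3K-Akt signaling, which took in Epha2, the integrins and the laminins, 9 were lower and Atf4 was higher. Under Rap1 signaling, which took in Epha2, Itgb3 and Actg1, 7 of 9 were lower and the predicted genes Gm21962 and Gm21750 were higher. The component term focal adhesion, a separate annotation, was attached to 7 listed genes, of which Epha2, Itgb3, Itga2, Actg1 and Sorbs3 were lower and Nox4 and Asap3 higher (edgeR log2 fold changes 1.26 and 1.31). The terms overlap in their genes and were attached to genes already selected, so these counts are descriptions.

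Likeness was measured as the root mean square difference of log2(FPKM + 1) over the 6 libraries, each gene centred on its own mean. Nearest to Lamb3 were Fh1, which encodes fumarase (0.0776), and Hsdl2 (0.0781), both lowest within WT in replicate 3. Nearest to Epha2 were Acot2, an acyl-CoA thioesterase gene (0.167), and Plin2, which encodes a lipid droplet coat protein (0.191). Nearest to Itgb3 were Marveld3, a tight junction gene (0.0753), and Tmtc2 (0.0902). Lamc3 was nearest to Adamts14, which encodes a procollagen protease (0.0840), and Micall2 (0.103), and Actg1 to Camk2n2 (0.126) and the small heat shock protein gene Hspb1 (0.132). Itga2 was nearest to Igdcc4 (0.0545) and Npnt (0.0564), and Npnt to Itga2 and Igdcc4 (0.0704). The pseudocount of 1 compresses the differences of low genes, so likeness on this scale also depends on level. By edgeR, Lamb3 (-1.83) differed more than Fh1 (-1.17), Itgb3 (-1.02) less than Marveld3 (-1.70) and Lamc3 (-1.15) less than Adamts14 (-1.86).

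The size of each difference moved with library scaling. The values above rest on the recovered depth. Scaling factors computed over the listed genes, which assume that most of these selected genes are unchanged, moved the median listed gene up by 0.58 (TMM) and 0.66 (RLE) on the log2 scale. None of the 7 genes changed direction, but Itgb3, Lamc3, Npnt and Actg1 no longer passed under either (edgeR log2 fold changes with TMM -0.42, -0.52, -1.57 and -0.45, adjusted p from 0.0679 to 0.241). Epha2, Lamb3 and Itga2 passed with both. Of the other genes named from the lists, Itgam, Itgax, Nid1, Rhoc, Cd36, Lgals3 and Cd14 no longer passed under either (with TMM, log2 fold changes from -1.01 in Lgals3 to -0.45 in Itgam, edgeR adjusted p from 0.0780 to 0.295).

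**Figure D4:**
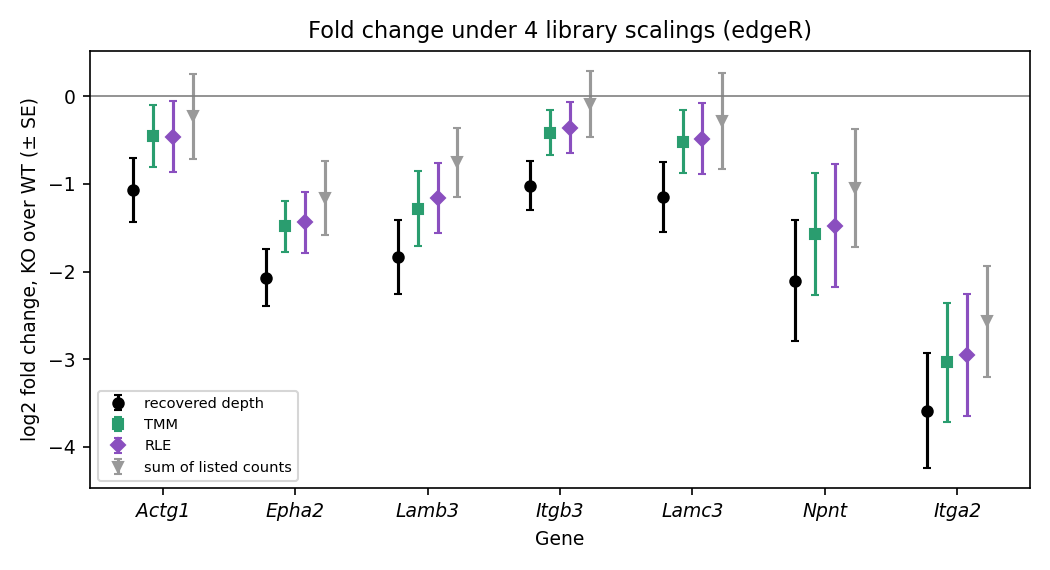
The edgeR log2 fold change of KO over WT (± SE) for each gene under 4 library scalings: recovered depth, TMM, RLE and the sum of the listed counts. Every estimate is below 0, and those of Itgb3, Lamc3 and Actg1 come closest to 0, at -0.09, -0.29 and -0.23 with the sum of listed counts.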

How the data were processed

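RNA-seq of mouse liver was analysed from 1 deposited table of 389 genes and 6 libraries. The submitters' processing notes name RSEM, StringTie 1.3.1, HISAT2 and fastp 0.18.0. The role of each tool, genome build, annotation, strand settings and authors' test were not given in the sources used here. Whole-number counts and FPKM per gene and library were deposited, per the file headers, and beside them the authors' mean FPKM, log2 fold change, p-value and FDR. Depth was recovered per library as the median of count over FPKM and transcript length, over 38 to 51 genes with a single transcript in GENCODE M21 (GRCm38), at least 50 counts and at least 1 FPKM. A sum over selected genes is no depth, so the recovered depth was the library size in edgeR 4.0.16 (quasi-likelihood, no filter, Benjamini-Hochberg over the 389 genes, R 4.3.3); the SE is the absolute log2 fold change over the square root of F. DESeq2 1.42.0, limma 3.58.1 on log2(FPKM + 1), other scalings, a count filter, a replicate block and leaving out each library were alternatives. Tests were checked on simulated counts. Intervals of count ratios are 95% exact binomial. No 2 replicates agreed within counting noise.

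The members and gene lists were chosen with earlier results of these data known. Named beside the 7 genes were up to 4 genes with a row from each list, those with the largest absolute log2 fold change, and the 2 genes most like each member. Protein sequences were not used here. 388 of 389 gene IDs matched the annotation.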

Additional observations from a re-analysis of the deposited data

How the results depend on the processing

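Of the 7 genes, 7 passed in edgeR's quasi-likelihood test, and 3 with TMM, 3 with RLE, 1 with the sum of the listed counts as library size, 4 with limma on log2(FPKM + 1) and 4 to 7 when 1 library was left out. Adjusted over the implied 16198 genes, with ranks taken among the listed genes only, 0 passed by edgeR and 3 by DESeq2. That alternative was added after seeing the data. The median log2 fold change of the 7 was -1.28 with TMM, -1.16 with RLE, -0.75 with the sum of listed counts, and -0.65 and -1.20 with limma at pseudocounts of 1 and 0.1, which compress low genes. It lay between -1.91 and -1.55 when 1 library was left out. Of the 389 listed genes, 388 passed (39.9% of calls higher), and 250 with TMM (62.4% higher), 236 with RLE (66.1% higher), 181 with the sum of listed counts (85.1% higher), 5 and 153 with edgeR and DESeq2 adjusted over the implied genes, and 279 to 372 when 1 library was left out. None of the 7 genes reversed its direction in any of these settings. Leaving out 1 library could not reverse it, because depth-scaled counts of KO and WT did not overlap in any of the 7. Same-numbered libraries did not deviate together (correlations of deviations over the 389 genes 0.0668, 0.107 and -0.0234), and with the replicate block 7 of the 7 genes and 382 listed genes passed, with a median of -1.75. Few reads limit Itga2 and Npnt, which had 8 and 17 reads in KO.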

Other observations

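Outside the 7 genes, listed genes to which the deposited annotation attached the term cell adhesion included some that were higher in KO. Among these, named after their values were seen, were the desmosomal cadherin gene Dsg1c (WT 1.53 ± 0.520 FPKM, KO 4.83 ± 0.410, SD over 3 libraries each), Celsr1, Cdh18 and Ncam2. Cntnap1, which encodes a contactin-associated surface protein and was also named after its values were seen, went from 5.84 ± 3.22 FPKM (SD, n = 3) in WT to 0.303 ± 0.248 (SD, n = 3) in KO, an edgeR log2 difference of -4.26 ± 0.61 (SE, adjusted p = 0.00227). Under the term basement membrane, 6 of 7 listed genes were lower, beside 59.9% of all listed genes, and Lamb3, Lamc3 and Npnt were among the 6. Lad1, which encodes ladinin and was also lower, had a mean FPKM of 1.67 ± 0.649 over the WT and 0.567 ± 0.130 over the KO libraries (SD). The 1 higher gene was Smoc2, which encodes a matrix calcium-binding protein, with 5.93 ± 3.79 FPKM over the WT and 12.7 ± 0.626 over the KO libraries (SD).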
